A study of Mus musculus with 85 samples.

Results

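The step from early to late 4-cell embryos was examined in 8 of the 85 libraries of the series: 4 libraries of early 4-cell embryos, collected 55 h after the hCG injection that times ovulation, and 4 libraries of late 4-cell embryos, collected at 62 h. The libraries were taken by their sample titles, with no measured value used in the choice. All 8 came from wild type mouse embryos of the B6C3F1/J strain, grown in the standard form of KSOM, a potassium-enriched culture medium, which held 5 mM lactate, 0.2 mM pyruvate and 0.2 mM glucose. The study followed embryos from 34 to 114 h and also changed the pyruvate and lactate of the medium, which is not described here. The labels do not tell how many embryos or cultures each library pooled. The p-values therefore cover the variation among libraries alone, and that variation may be technical.

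In the mouse, the oocyte's own messenger RNAs drive the first cleavage and are then degraded, and the embryo's genome is switched on in a burst at the 2-cell stage. During the 4-cell stage each blastomere passes through a full cell cycle while transcription of the embryo's genes builds up the machinery for protein synthesis and respiration. The blastomeres are still round and loosely attached, and flattening against each other, called compaction, follows at the 8-cell stage. Outer cells later become trophectoderm, the precursor of the placenta, and inner cells become the inner cell mass, from which the embryo and primitive endoderm arise.

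RNA was read by Smart-seq2, which copies polyadenylated RNA from its tail and amplifies whole transcripts. Values are CPM, read counts divided by the library total, so they give a gene's share of the library, are not divided by gene length and are not compared between genes. In bulk samples, fewer cells of a type and less RNA per cell cannot be told apart. The early libraries held 27.1 to 42.6 M reads and the late ones 15.9 to 32.7 M, as read from the step between low values, so that counting alone gave a relative SD of 15.3 to 25.1% at 1 CPM. Libraries of one age correlated at 0.962 to 0.982 over log2 values of genes, and libraries of different ages at 0.934 to 0.947. Late library 4 stood apart most clearly in mitochondrial RNA. Only 0.793% of its CPM came from genes of the mitochondrial genome, against 3.76 to 5.11% in the other late libraries and 3.41 to 4.93% in the early ones. It also had the most outlying values among the named genes, 9, and lower sums for some gene lists, such as the retroelement silencers at 8028 CPM against 12220 to 17135 CPM in the other late libraries. For other lists its sum was the highest of the late libraries. Ribosomal proteins gave 21469 CPM in late library 4 against 15674 to 20800 CPM, and translation factors 26058 CPM against 22616 to 24212 CPM. List counts that leaving late library 4 out moved by over 1.5 times are given without it.

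Fewer genes lay above 1 CPM in the late libraries, although this difference did not pass the threshold after adjustment. Genes below that share of a library may still have had reads. Above 1 CPM lay 14409, 14430, 14438 and 14310 genes in the early libraries and 13176, 13584, 13496 and 13352 in the late ones. The groups did not overlap, and the means differed by -995 genes (exact two-sided permutation test, p = 0.029, the smallest that 4 against 4 libraries allow; adjusted p = 0.087 over 3 such measures). The 100 highest genes took 21.3% ± 0.338 (SD, n = 4) of early CPM and 23.8% ± 2.08 (SD, n = 4) of late CPM. That difference did not pass the exact permutation test (p = 0.11, adjusted p = 0.17), although without late library 4 it was 3.32 percentage points (exact permutation p = 0.029). The share of mitochondrial RNA did not pass either (exact permutation p = 0.69, adjusted p = 0.69).

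Across 20158 tested genes, 8066, or 40.0%, differed between 55 and 62 h at an adjusted p under 0.05 in limma's moderated test on log2(CPM + 1). Of the tested genes 13.4% were higher in late embryos (2698 genes) and 26.6% were lower (5368 genes). These shares are the background to set beside each count of list members below. They include genes that were low at this stage. Of the 14867 tested genes above 1 CPM in at least 3 of these 8 libraries, 7202 were called, a larger share than 40.0%. The background may therefore be too low for lists of well-expressed genes. Changes of at least 1 on the log2 scale numbered 995 upward and 2498 downward. Of the calls, 1707 upward and 3394 downward had no overlap between the 4 early and the 4 late libraries. Genes that rose took 16.9% of early and 30.1% of late CPM, and genes that fell took 28.3% and 14.6%. Since CPM is a share, a few abundant genes can move all others. The median log2 change of all tested genes was -0.11, and of the calls 33.4% were upward. With quantile scaling the median was 0.01 and 49.4% of calls were upward, and with a trend of change with gene length removed they were 0.03 and 49.8%. Changes near -0.11 are therefore no different from the bulk of genes, and log2 changes understate those of genes near 1 CPM. The plot of change against level shows calls over the whole range of expression.

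**Figure D1:**
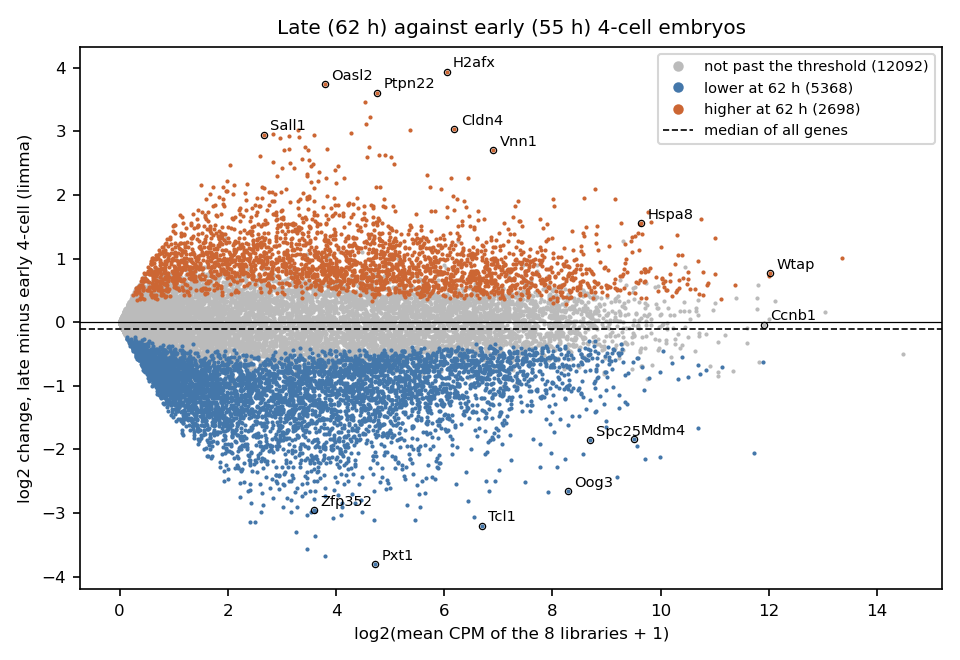
Log2 change from early to late 4-cell embryos (limma, y axis) against log2 of the mean CPM of the 8 libraries plus 1 (x axis), 1 point per tested gene, coloured by call at an adjusted p under 0.05. The 5368 lower genes outnumber the 2698 higher ones, and the dashed line marks the median of all genes at -0.11.

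Among the genes with the largest rises were a chromatin protein, an immune phosphatase, a homeobox factor and components of epithelia. Most genes named here and below were drawn from calls without overlap, so their small p-values and lack of overlap follow from that choice. The largest was that of H2afx, which encodes the histone variant H2A.X, phosphorylated beside DNA breaks (GRCm38 chromosome 9, 44334694 to 44336077). It stood at 7.09, 6.16, 8.69 and 5.96 CPM in early embryos and at 85.7, 125, 124 and 157 CPM in late ones. All late libraries lay far above all early ones, a log2 change of 3.94 ± 0.35 (SE, adjusted p = 1.4e-11, limma). The level was 24.2 CPM at 52 h, in very late 2-cell embryos, and 88 CPM at 66 h, in early 8-cell embryos, so the early 4-cell mean lay below both. In contrast, none of the 29 replication-dependent core histone genes that could be tested passed the threshold in either direction in limma, nor did any have an unadjusted p under 0.05 (median log2 change 0.01), and most of their messages lack the poly(A) tail that Smart-seq2 primes from.

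Ptpn22, a tyrosine phosphatase known from lymphocytes (chromosome 3, 103859795 to 103912247), was at 2.99, 1.8, 3.32 and 4.6 CPM in early and 49.8, 51, 55.5 and 39.6 CPM in late libraries. Its mean had declined from 26.2 CPM at 34 h to 3.18 CPM at 55 h, then stood at 49 CPM at 62 h and 51.2 CPM at 66 h. Noto, a homeobox gene of the later notochord, gave 1.77, 5.71, 6.89 and 2.23 CPM in early and 30.9, 41.1, 44.2 and 57.7 CPM in late embryos. Its mean of 43.5 CPM at 62 h was 21.1 CPM at 66 h and 7.37 CPM at 74 h. Oasl2, a member of the interferon-induced oligoadenylate synthetase-like family, lay at 0.849, 0.0346, 5.16 and 0 CPM in early and 23.3, 30.5, 24.4 and 18.2 CPM in late libraries. These genes had log2 changes of 3.61 ± 0.2, 3.22 ± 0.27 and 3.74 ± 0.39 (SE, adjusted p of 6.4e-17, 2.9e-12 and 4.6e-10, limma). The early libraries were low in each of them, and a lack of overlap was a condition for naming them.

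Genes of membranes and metabolism were also among the largest rises. Vnn1, a pantetheinase that releases cysteamine and pantothenate, went from 31.4 ± 11.4 to 207 ± 62.7 CPM (SD, n = 4 each). It had been at 3.01 CPM at 52 h and 0.283 CPM at 48 h. Acadl, the long-chain acyl-CoA dehydrogenase of fatty acid oxidation, went from 7.35 ± 3 to 50.2 ± 16.7 CPM. Slc39a2, a zinc importer, rose by 3.12 ± 0.35 and Reep1, which shapes the endoplasmic reticulum, by 3.46 ± 0.25 on the log2 scale (SE). Fstl3, a secreted inhibitor of activins, rose by 2.97 ± 0.37, Tbc1d17, a regulator of Rab GTPases, by 2.63 ± 0.34 and Atp6v1f, a subunit of the vacuolar proton pump, by 2.59 ± 0.18. The largest adjusted p of these 7 genes was 4.8e-08 (limma), and a lack of overlap was a condition for naming them. The list also held Rpl10-ps1, a pseudogene whose reads may come from ribosomal protein copies and whose value is uncertain.

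The largest falls joined oocyte transcripts with genes that the embryo itself had been transcribing. Pxt1, a peroxisomal testis-specific gene (chromosome 17, 28933984 to 28943840), stood at 51.4, 38, 53 and 50.6 CPM in early and 2.99, 2.54, 2.25 and 2.17 CPM in late libraries. The early mean was 19.4 times the late one, with a log2 change of -3.81 ± 0.25 (SE, adjusted p = 2.9e-15, limma). Tcl1, an AKT coactivator stored in the oocyte, gave 221, 146, 200 and 175 CPM in early and 13.1, 19.4, 23.6 and 22.1 CPM in late embryos. Its mean was 13160 CPM at 34 h, so the 4-cell fall was the tail of a longer decline. Mfsd2a, a lysophospholipid transporter, fell by 3.36 ± 0.27 and Tubg2, a gamma-tubulin, by 2.91 ± 0.31 on the log2 scale (SE), from levels present since 34 h.

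Another large fall, that of Pip5k1b, ended a transient expression. For the other genes of this paragraph the earlier course is not given here. Pip5k1b, a kinase that makes the membrane lipid phosphatidylinositol 4,5-bisphosphate, rose from 0.309 CPM at 34 h to 14.2 CPM at 52 h and 26.7 CPM at 55 h, and was at 2.22 CPM at 62 h. Rpp25, a protein of the RNase P and MRP ribonucleases, went from 166 ± 41.7 to 19.4 ± 7.23 CPM, and Pcp4l1 from 34.7 ± 5.72 to 4.09 ± 1.45 CPM (SD, n = 4 each). Bambi, a decoy receptor of TGF-beta signalling, fell by 2.88 ± 0.29, Creld1 by 2.9 ± 0.24 and B3gnt2, which extends lactosamine chains, by 2.84 ± 0.31 on the log2 scale (SE). Troap, a spindle-associated protein, fell by 3.11 ± 0.27 and Mxra8, an adhesion protein, by 2.97 ± 0.27. For these genes the largest adjusted p was 1.7e-09 (limma), and a lack of overlap was again a condition for naming them.

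**Figure D2:**
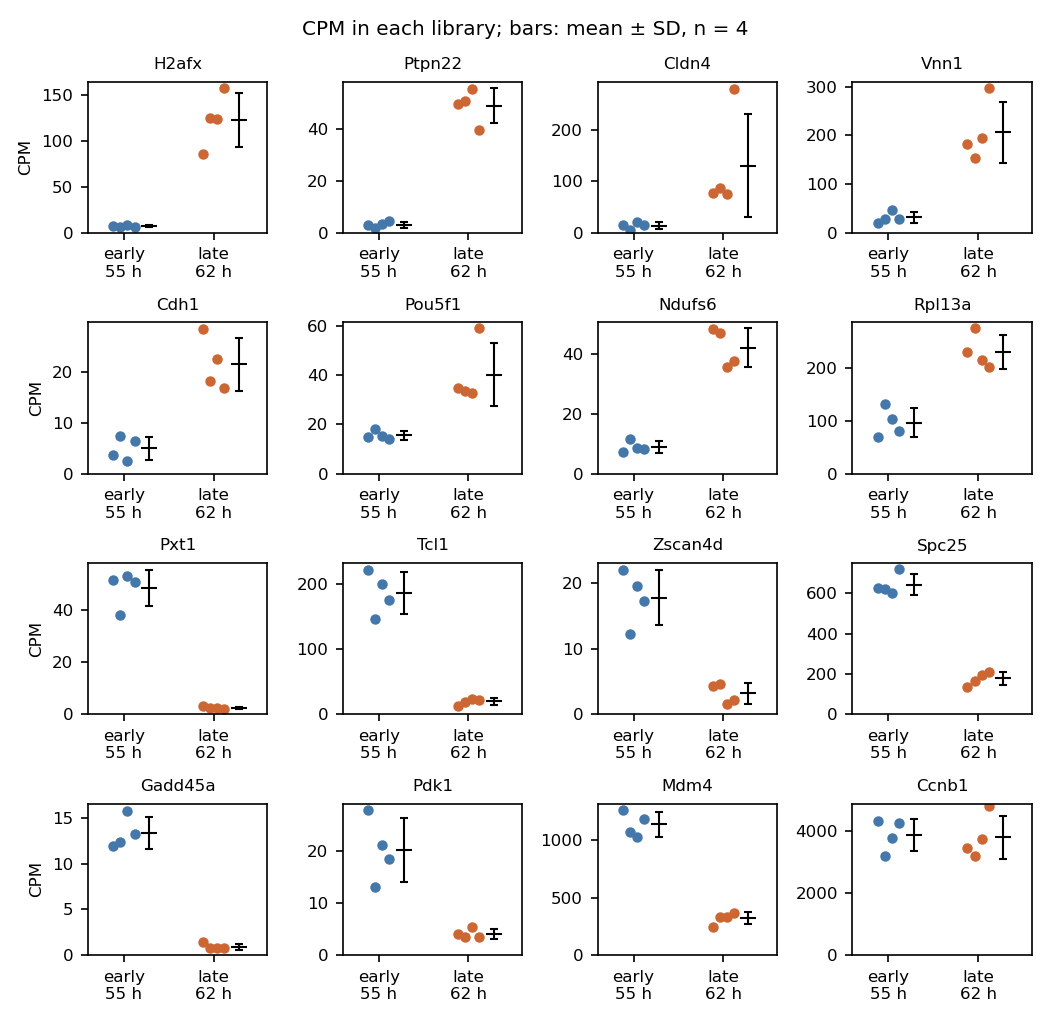
CPM in each of the 4 early (blue) and 4 late (orange) 4-cell libraries for 16 genes, with the mean ± SD in black. H2afx, Ptpn22, Cldn4, Vnn1, Cdh1, Pou5f1, Ndufs6 and Rpl13a lie higher at 62 h without overlap, Pxt1, Tcl1, Zscan4d, Spc25, Gadd45a, Pdk1 and Mdm4 lie lower, and Ccnb1 overlaps.

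Oocyte transcripts formed the list with the most falls. Of 65 tested members, 49 fell, 1 rose and 15 did not pass, with a median log2 change of -1.54 against -0.11 for all genes. The riser was Dppa3, which protects the maternal genome from demethylation. Its early libraries were at 1256, 1730, 1471 and 1357 CPM and its late ones at 1521, 2030, 2362 and 3348 CPM. The groups overlapped, the log2 change was 0.62 ± 0.23 (SE, adjusted p = 0.026, limma), and without late library 4 it was 0.43 with adjusted p = 0.15. Over the 15 alternatives its adjusted p reached 0.15, and 5 of them ended the call. Oog3, one of the oogenesin genes, went from 539 ± 68.2 to 86.3 ± 21.6 CPM, and Wee2, a kinase that holds the oocyte in meiotic arrest, from 25.6 ± 3.18 to 3.47 ± 1.47 CPM. Bmp15, a growth factor of the oocyte, fell by 2.38 ± 0.23 and H1foo, its linker histone, by 1.6 ± 0.18 on the log2 scale. Zp3, a protein of the egg coat, fell by 1.01 ± 0.23, although its mean of 14.5 CPM at 34 h had first risen to 143 CPM at 52 h. Within the oogenesin, Tcl1b and Obox families reads of near-identical copies could have been split by the counting, so single members are uncertain.

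Of 40 factors that remove maternal messages 8 fell and 32 did not pass, a lower share of falls than the 26.6% of all tested genes, at a median log2 change of -0.22. None rose in limma, and 1 was higher at an unadjusted p under 0.05. The fallers included Btg4, the adaptor of the CCR4-NOT deadenylase needed for maternal mRNA decay, at 50, 92.7, 61 and 61 CPM in early and 13.7, 18.3, 12.3 and 11.4 CPM in late embryos. Its log2 change was -2.15 ± 0.22 (SE, adjusted p = 4.5e-10, limma). Cnot6l, a catalytic deadenylase of the same complex, went from 11 ± 1.36 to 5.06 ± 1.53 CPM, Dcp2, the decapping enzyme, from 33.8 ± 4.8 to 15.6 ± 4.38 CPM and Lsm14b, an oocyte messenger-storage protein, from 16.4 ± 8.13 to 4.99 ± 2.7 CPM.

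Some transcripts of the 2-cell burst fell further. Of 53 tested, 24 fell, 4 rose (Obox6, Pramel6, Pramel7 and Eif1a) and 25 did not pass, with a median log2 change of -0.57. The summed level of the list went the other way, with 3298 to 4023 CPM in early and 4555 to 6119 CPM in late libraries. Zscan4d, a telomere and chromatin factor of that burst, had a mean of 637 CPM at 42 h. It gave 22.1, 12.3, 19.6 and 17.3 CPM in early and 4.37, 4.62, 1.6 and 2.12 CPM in late 4-cell embryos, a log2 change of -2.22 ± 0.33 (SE, adjusted p = 7.2e-07, limma). Zfp352, a zinc finger gene derived from a retroposed copy, lay at 30.7, 5.44, 17.9 and 27.9 CPM in early and 1.63, 0, 2.87 and 2.11 CPM in late libraries. Obox3, a homeobox gene, fell by 2.28 ± 0.16 and Zscan4a by 3.3 ± 0.22 on the log2 scale. The Zscan4 copies are nearly identical, so the split between them is uncertain.

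**Figure D3:**
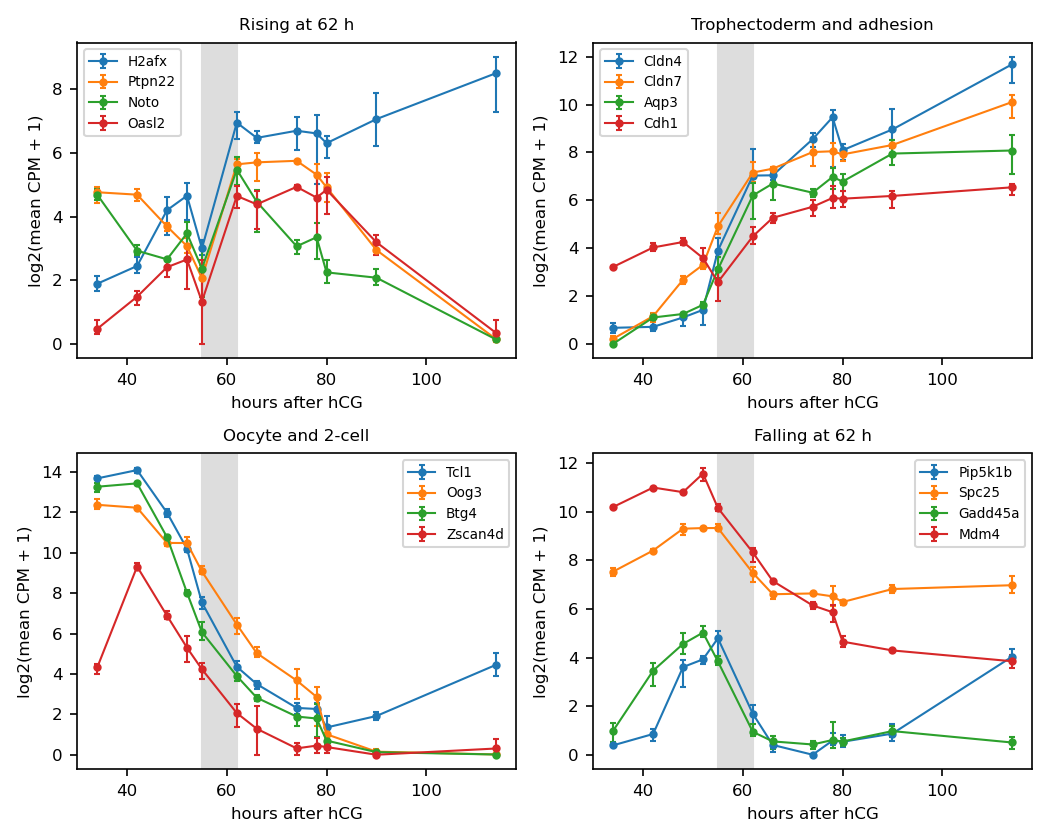
Log2 of the mean CPM plus 1 of 16 genes over the standard course (x axis, hours after hCG), with whiskers from the lowest to the highest library of each age and the interval from 55 to 62 h in grey. H2afx, Ptpn22, Noto and Oasl2 have lower means at 55 h than at 52 h and rise by 62 h, while Tcl1, Oog3 and Btg4 decline from the 2-cell stage on.

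Cytosolic ribosomal proteins, the protein part of the ribosome, were the list with the most rises. Of 82 tested, 59 rose, 1 fell (Rps10) and 22 did not pass, and the median log2 change was 0.69. The count depended on 1 library, since without early library 1 it was 39 rises. Without late library 4 it was 51, and the scaling alternatives gave 62 to 66. Rpl13a stood at 69.7, 132, 103 and 81.2 CPM in early and 230, 276, 215 and 201 CPM in late embryos, so all late libraries were higher. Rpl7a went from 32.8 ± 9.85 to 80.9 ± 11.6 CPM, Rpl29 from 41.4 ± 9.49 to 96.3 ± 8.8 CPM and Rpl36a, on the X chromosome, from 18.4 ± 5.44 to 43.1 ± 4.53 CPM (SD, n = 4 each). The largest adjusted p of these 4 genes was 2.2e-05 (limma). Processed pseudogenes of ribosomal proteins are numerous and could have taken some of their reads.

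Genes for the assembly of ribosomes in the nucleolus changed in both directions. Of 75 tested members 9 rose, 19 fell and 47 did not pass, near the 13.4% and 26.6% of all tested genes. The median was -0.09. With the length trend removed it was 20 rises and 13 falls, and without early library 2, early library 3 or late library 3 it was 5 rises, so no direction is given for the list. Rrp9, which binds the U3 nucleolar RNA, was at 222, 179, 223 and 213 CPM in early and 85.4, 72.2, 98.4 and 101 CPM in late libraries, lower without overlap. Polr1e, a subunit of RNA polymerase I, went from 379 ± 47.2 to 195 ± 10 CPM, while Wdr12, of the large-subunit PeBoW complex, was at 156, 113, 124 and 144 CPM in early and 286, 243, 268 and 259 CPM in late libraries. Rrs1, which helps to load the 5S ribosomal particle, fell by 1.4 ± 0.25 on the log2 scale (SE, adjusted p = 2e-05, limma).

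Of 49 translation factors 15 rose and 7 fell, at a median of 0.2, with 23 rises and 4 falls when the length trend was removed. The rises were led by elongation factor subunits: Eef1g was at 34.2, 43.2, 42.2 and 34.8 CPM in early and 115, 118, 103 and 111 CPM in late libraries, 2.89 times the early mean. Eef1b2 went from 67.6 ± 8.88 to 207 ± 60.5 CPM and Eif3d, a cap-binding subunit of initiation factor 3, from 99 ± 4.63 to 239 ± 30.7 CPM. Eif1b moved the other way, from 174 ± 20.8 to 81 ± 14 CPM. Among 22 aminoacyl-tRNA synthetases, which charge tRNAs, 8 rose and 4 fell. Lars, for leucine, went from 4.62 ± 1.04 to 25.2 ± 8.41 CPM and Yars, for tyrosine, from 55.1 ± 9.69 to 138 ± 11.7 CPM, whereas Iars, for isoleucine, went from 110 ± 27 to 55.9 ± 13.6 CPM. All of these passed with adjusted p of 5e-05 or less (limma).

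Mitochondrial ribosomal proteins rose in 36 of 78 cases and fell in 6, at a median of 0.4. The falls were 3 without early library 2, late library 1 or the length trend. Mrps18a was at 37.4, 49.7, 51.6 and 42.4 CPM in early and 123, 136, 120 and 141 CPM in late embryos. Mrpl14 went from 13.8 ± 0.968 to 36.2 ± 3.15 CPM and Mrpl15 from 137 ± 20.9 to 333 ± 57.4 CPM (SD, n = 4 each). Mrps6 was the largest exception. Its values were 120, 229, 219 and 193 CPM in early and 58.5, 55, 59.6 and 106 CPM in late libraries, a log2 change of -1.45 ± 0.2 (SE, adjusted p = 1.3e-07, limma).

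Nuclear genes of the respiratory chain and ATP synthase rose in 34 of 77 cases and fell in 1, Cycs, which encodes cytochrome c. The median was 0.34. Without late library 4 the counts were 27 and 3, and without early library 1 there were 5 falls. The 4 members named were subunits of complex I, the NADH dehydrogenase. Ndufs6 lay at 7.28, 11.7, 8.69 and 8.17 CPM in early and 48.3, 47.1, 35.6 and 37.8 CPM in late embryos, 4.71 times the early mean, with a log2 change of 2.12 ± 0.2 (SE, adjusted p = 2.6e-11, limma). Ndufa3 rose by 1.82 ± 0.2, Ndufs5 by 1.31 ± 0.18 and Ndufa5 by 1.27 ± 0.25 on the log2 scale.

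None of the 13 messenger RNAs of the mitochondrial genome passed the threshold in limma, 1 was lower at an unadjusted p under 0.05, and their median log2 change was -0.69. That median rested on late library 4, without which it was -0.06. With quantile scaling, fitted with late library 4 kept, mt-Nd1 passed as lower (log2 change -0.99, adjusted p = 0.02, limma). The 13 together gave 49262, 41983, 34084 and 42625 CPM in early and 50959, 42964, 37573 and 7921 CPM in late libraries. Apart from late library 4, the late libraries lay within or close to the early range. The log2 change of mt-Cytb, which encodes cytochrome b, was -0.5 (adjusted p = 0.39, limma), and without that library it was 0.14.

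In the tricarboxylic acid cycle and malate-aspartate shuttle 13 of 29 members rose and 1 fell, at a median of 0.26. Without late library 4, 8 rose and 3 fell. Idh1, the cytosolic NADP-dependent isocitrate dehydrogenase, was at 25.8, 31.8, 36.9 and 41.3 CPM in early and 131, 114, 140 and 130 CPM in late embryos, with no overlap. Its mean had been 7.55 CPM at 52 h and was 183 CPM at 66 h. Suclg2, a subunit of succinyl-CoA ligase, went from 9.79 ± 2.68 to 34.2 ± 7.14 CPM and Sdha, of succinate dehydrogenase, from 18.9 ± 2.28 to 42.2 ± 15.1 CPM. Adjusted p-values were 8.1e-06 or less (limma). Fatty acid oxidation had 7 rises (11 with quantile scaling) and 6 falls among 28, beside 13.4% and 26.6% of all tested genes. Besides Acadl, Hadh rose by 1.32 ± 0.21 on the log2 scale.

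**Figure D4:**
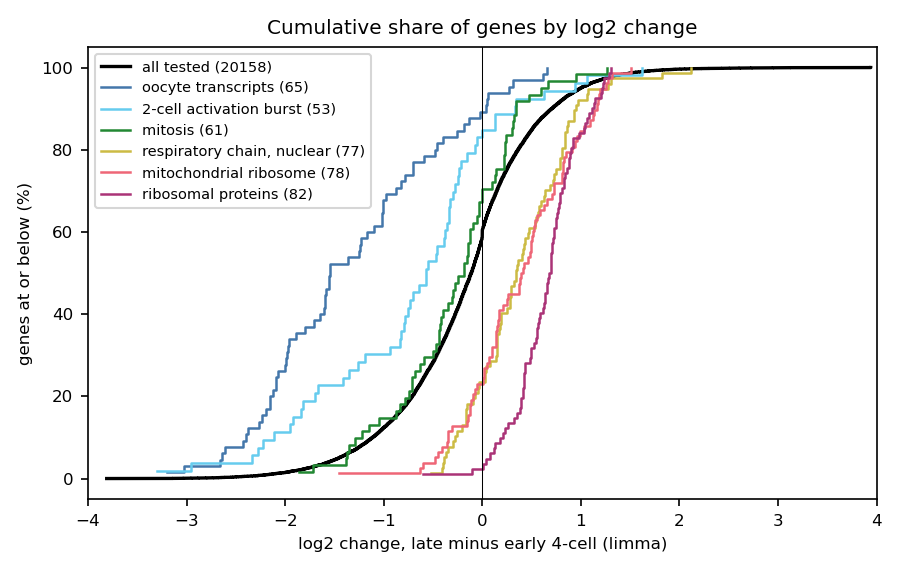
Cumulative share of genes (y axis, %) at or below each log2 change from early to late 4-cell embryos (x axis) for all 20158 tested genes and for 6 gene lists. Ribosomal proteins (median 0.69), the mitochondrial ribosome (0.4) and the nuclear respiratory chain (0.34) lie to the right of all genes (-0.11) and oocyte transcripts (-1.54) to the left.

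Of 26 genes handling pyruvate and lactate, the substrates the study varied, 5 rose, 8 fell and 13 did not pass. The shares of all tested genes were 13.4% higher and 26.6% lower. Pdha1, the X-linked catalytic subunit of pyruvate dehydrogenase, was at 152, 91.4, 119 and 110 CPM in early and 356, 254, 298 and 419 CPM in late embryos, higher in all late libraries. Pdk1, a kinase that inhibits that enzyme, was at 27.8, 13, 21.2 and 18.5 CPM in early and 3.98, 3.53, 5.39 and 3.4 CPM in late embryos, lower in all. The log2 changes were 1.48 ± 0.18 and -2.03 ± 0.24 (SE, adjusted p of 1.2e-08 and 1.1e-08, limma). Slc16a1, the monocarboxylate transporter MCT1, went from 54.6 ± 4.39 to 18.3 ± 5.78 CPM. Ldhb, the lactate dehydrogenase subunit abundant in the oocyte, went from 36.7 ± 7.23 to 12.9 ± 5.92 CPM after a mean of 3183 CPM at 34 h. For Ldha the values were 17.8 ± 7.24 and 12.2 ± 2.56 CPM (adjusted p = 0.15, limma). Of the mitochondrial pyruvate carrier, Mpc2 rose from 389 ± 91 to 561 ± 35.8 CPM (adjusted p = 0.0051) and Mpc1 was at 781 ± 131 and 749 ± 59.6 CPM (adjusted p = 0.86).

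In glycolysis 2 of 28 genes rose, 9 fell and 17 did not pass, beside 13.4% higher and 26.6% lower among all tested genes. The median was -0.3. The risers were Hk1, a hexokinase, from 5.76 ± 2.16 to 20.5 ± 6.18 CPM, and Fbp2, which encodes fructose bisphosphatase, an enzyme of the opposite direction, from 19.8 ± 4.94 to 67.4 ± 22.5 CPM (SD, n = 4 each). Pkm, pyruvate kinase, was at 73, 76.6, 53.4 and 53.7 CPM in early and 21.2, 17.9, 22.4 and 16.8 CPM in late libraries, lower in all, with a log2 change of -1.65 ± 0.24 (SE, adjusted p = 5.9e-07, limma). Bpgm, a mutase that makes 2,3-bisphosphoglycerate, fell by 1.59 ± 0.21. The glucose transporters Slc2a1, at 0.768 ± 0.868 and 0.39 ± 0.471 CPM, and Slc2a3, at 31.5 ± 19.7 and 37.1 ± 15.6 CPM, did not pass (adjusted p of 0.61 and 0.58).

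Single enzymes of other pathways changed in both directions. Bhmt, which uses betaine to remake methionine, was at 121, 105, 101 and 117 CPM in early and 324, 294, 432 and 586 CPM in late embryos, on its way to 1362 CPM at 78 h. Mthfd2, a mitochondrial folate enzyme, went from 64.1 ± 11.2 to 25.9 ± 3.9 CPM. Of 26 cholesterol genes 5 rose and 6 fell, beside 13.4% and 26.6% of all tested genes. The falls were 3 without late library 3, late library 4 or the length trend, and 2 with quantile scaling or only the 8 libraries fitted. Insig1, the brake on sterol synthesis, went from 228 ± 55 to 67.8 ± 25.6 CPM, Sqle, squalene epoxidase, from 218 ± 67 to 107 ± 29.9 CPM and Msmo1, a sterol oxidase, from 22.9 ± 3.05 to 83 ± 33.3 CPM. Of 37 redox genes 10 fell and 6 rose, near the 26.6% and 13.4% of all tested genes, and their summed level was 9801 to 11058 CPM in early and 15203 to 18992 CPM in late libraries. Among those that fell, Gclc, the rate-limiting enzyme of glutathione synthesis, fell by 2.18 ± 0.26, G6pdx, which supplies NADPH, by 2.12 ± 0.31, Prdx2, a peroxidase, by 1.69 ± 0.19 and Nfe2l2, the oxidative stress factor NRF2, by 1.35 ± 0.24 on the log2 scale. The largest adjusted p of these 9 genes was 0.005 (Sqle, limma).

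Of 38 chaperones and stress genes 10 rose and 10 fell, beside 13.4% and 26.6% of all tested genes. Without early library 1 there were 6 falls. Hspa8, the constitutive HSP70, stood at 465, 297, 428 and 433 CPM in early and 1157, 997, 1208 and 1400 CPM in late libraries, a log2 change of 1.56 ± 0.19 (SE, adjusted p = 1e-08, limma). Cct7, of the chaperonin that folds actin and tubulin, went from 222 ± 32.6 to 514 ± 101 CPM, and Hsph1, an HSP110, from 88.5 ± 9.08 to 35 ± 5.3 CPM. Of 36 proteasome genes 11 rose and 3 fell. The rises were 7 without early library 4 and 19 with the length trend removed, and the falls were 5 without late library 4. Psmc6, an ATPase of the 19S cap, went from 130 ± 13.3 to 227 ± 20.4 CPM, while the activators Psme4 and Psme3 fell by 1.17 ± 0.2 and 0.9 ± 0.19 on the log2 scale. Of 46 lysosome and autophagy genes 12 rose (19 with the length trend removed) and 4 fell, with Tfeb, their transcription factor, going from 4.32 ± 1.82 to 15.2 ± 1.66 CPM and Ctsd, cathepsin D, from 74.4 ± 15.7 to 169 ± 28.5 CPM.

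Some genes of the later lineages rose. Of 36 trophectoderm genes 12 rose and 4 fell, at a median of 0.1. Cldn4, a claudin of tight junctions, stood at 15.1, 4.67, 20.7 and 15.2 CPM in early and 76.8, 86.9, 75.9 and 280 CPM in late embryos. All late libraries were higher and late library 4 was highest, and the log2 change was 3.04 ± 0.4 (SE, adjusted p = 9.1e-08, limma). Cldn7 went from 29.1 ± 9.43 to 142 ± 40.2 CPM. Aqp3, a water and glycerol channel, was at 6.98, 11.4, 6.35 and 5.8 CPM in early and 106, 87.4, 60.8 and 36.6 CPM in late libraries, a rise of 3.03 ± 0.28 on the log2 scale. Dab2, an endocytic adaptor of trophectoderm and primitive endoderm, rose by 1.82 ± 0.37. The fallers of the list included Yap1, from 91.1 ± 10.3 to 39.1 ± 7.24 CPM, and Tead2. Among factors that specify trophectoderm, Cdx2 and Gata3 did not pass, while Tead4 is given with Tead2 in the Hippo pathway. Cdx2 was listed at 0 in all 4 early libraries and at 0, 0.126, 0 and 0 CPM in the late ones. Gata3 was at 2.31 ± 0.918 and 3.72 ± 1.4 CPM (adjusted p = 0.19, limma; 0.034 with quantile scaling), with 28 CPM at 66 h.

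Of 38 genes of the inner cell mass and pluripotency 16 rose, 6 fell and 16 did not pass, at a median of 0.34. Pou5f1, which encodes OCT4, was at 14.9, 18.1, 15.2 and 14 CPM in early and 34.8, 33.5, 32.7 and 59.1 CPM in late embryos. Nanog was at 13.2, 15.4, 11.7 and 12.3 CPM and then 30.7, 30.5, 36.6 and 32.2 CPM. Neither gene overlapped between the ages, and the log2 changes were 1.27 ± 0.24 and 1.25 ± 0.19 (SE, adjusted p of 3.1e-05 and 1.4e-06, limma). Sall1, a zinc finger partner of NANOG, had 1.14, 0, 0.0361 and 0.845 CPM in early and 12, 11.5, 6.96 and 10.4 CPM in late libraries. Tdgf1, the NODAL coreceptor Cripto, went from 31.1 ± 10.7 to 118 ± 23.9 CPM and Nr5a2, a nuclear receptor active in these embryos, from 151 ± 14.1 to 263 ± 46.9 CPM. L1td1, an RNA-binding protein of pluripotent cells, fell by 2.27 ± 0.38 and Etv5, an ETS factor, by 1.81 ± 0.25 on the log2 scale. Sox2, at 0.396 ± 0.17 and 0.239 ± 0.303 CPM, and Klf17, at 274 ± 89.7 and 337 ± 72.1 CPM, did not pass (adjusted p of 0.61 and 0.41). In the primitive endoderm list, 6 of 22 rose and 2 fell. The rises were 3 without late library 2, and 3 with only the 8 libraries fitted, with or without a replicate block. Gata6, its founding factor, went from 9.36 ± 0.907 to 25.2 ± 5.26 CPM (adjusted p = 6.2e-06, limma), with 96.7 CPM at 66 h.

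Several factors have been studied for unequal activity between blastomeres of the 4-cell embryo, which bulk libraries cannot show. Of 23 such genes tested 8 rose, 3 fell and 12 did not pass. The fallers included Yap1, from 91.1 ± 10.3 to 39.1 ± 7.24 CPM. Carm1, a histone arginine methyltransferase, was at 2.91, 1.94, 3.17 and 5.55 CPM in early and 9.82, 9.01, 15.4 and 8.66 CPM in late libraries (log2 change 1.44 ± 0.33, SE, adjusted p = 0.00052, limma). Prdm14, which acts with it, went from 9.08 ± 2.35 to 18 ± 4.21 CPM (adjusted p = 0.011), although with a pseudocount of 0.1 the call was lost (adjusted p = 0.19). Neat1, the noncoding RNA of paraspeckles, to which CARM1 localises, went from 2.48 ± 1.01 to 6.74 ± 1.4 CPM (adjusted p = 0.0042). Sox21, a SOX factor, had already gone from 1.12 CPM at 52 h to 9.8 ± 3.89 CPM at 55 h and stood at 8.39 ± 2.97 CPM at 62 h (adjusted p = 0.66).

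Of 50 adhesion and polarity genes, used at compaction, 16 fell and 6 rose, close to the 26.6% and 13.4% of all tested genes, at a median of -0.24. With the length trend removed the counts were 13 and 12 and the median was 0. Cdh1, which encodes E-cadherin, the adhesion molecule of compaction, lay at 3.73, 7.34, 2.42 and 6.38 CPM in early and 28.5, 18.2, 22.6 and 16.9 CPM in late embryos. That was 4.34 times the early mean, with a log2 change of 1.98 ± 0.22 (SE, adjusted p = 1.8e-09, limma). The apical polarity gene Pard3 moved the other way, from 113, 52.7, 57.7 and 57.6 CPM to 12.7, 19.6, 22.8 and 18.9 CPM, after a mean of 258 CPM at 48 h.

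The Hippo pathway, which reads cell position and restrains YAP, had 4 rises and 9 falls among 27 genes. The shares of all tested genes were 13.4% and 26.6%. Lats2, the kinase that inactivates YAP, was at 4.54, 2.56, 4.26 and 2.84 CPM in early and 21.6, 23.1, 17.8 and 12.3 CPM in late embryos, higher in all late libraries. Yap1 itself was at 88.7, 103, 94.4 and 78.3 CPM and then 32.1, 48.1, 41.7 and 34.7 CPM. Of its DNA-binding partners, Tead4, needed for trophectoderm, went from 84.7 ± 10.1 to 179 ± 65 CPM and Tead2 from 11.3 ± 2.61 to 5.21 ± 2.13 CPM. The adjusted p-values of these 4 genes were 2.4e-10, 3.4e-07, 0.00012 and 0.001 (limma). Wwc2, an upstream regulator, fell by 1.35 ± 0.21 on the log2 scale.

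**Figure D5:**
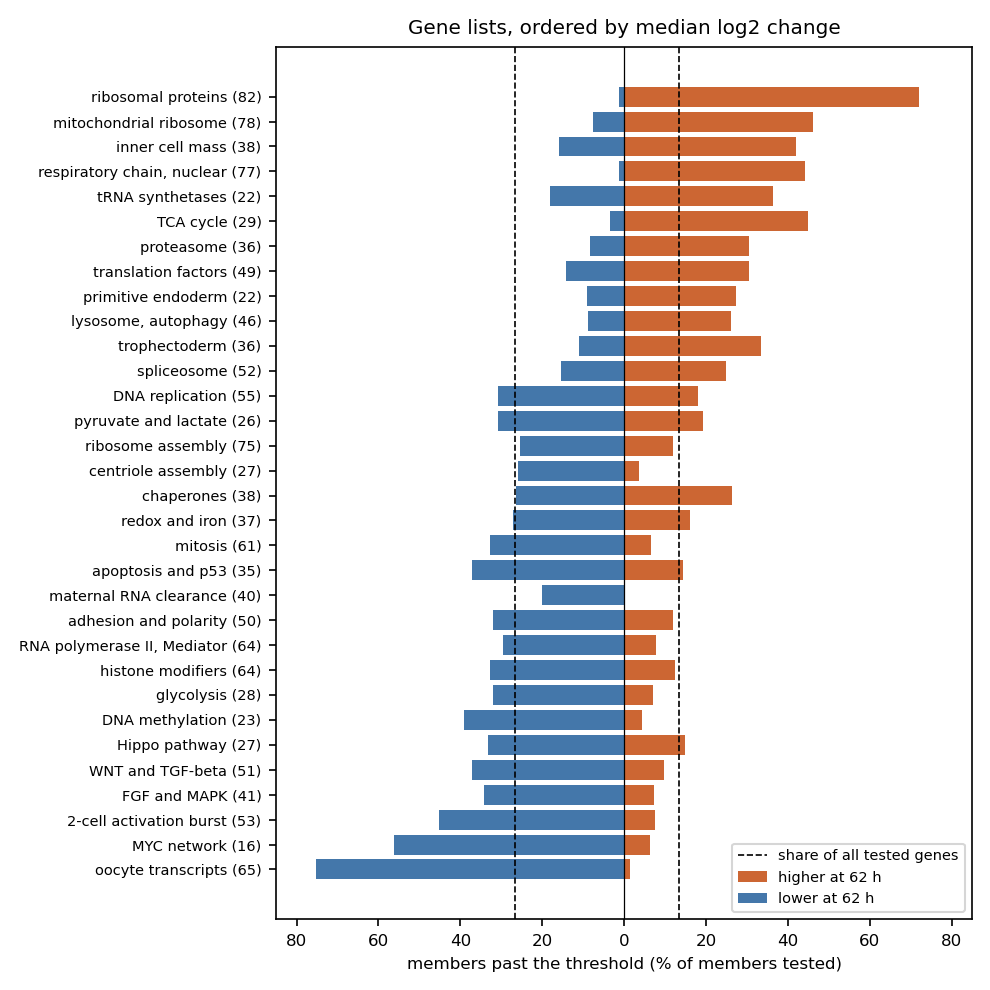
Share of the tested members of each gene list (number in brackets) that were higher (orange, to the right) or lower (blue, to the left) in late than in early 4-cell embryos, in %, ordered by median log2 change. Dashed lines mark the shares of all tested genes, 13.4% higher and 26.6% lower; ribosomal proteins have 59 of 82 higher and oocyte transcripts 49 of 65 lower.

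Some cell division genes were lower in the late embryos. Of 61 mitotic genes 20 fell, 4 rose and 37 did not pass, beside 26.6% lower and 13.4% higher among all tested genes. The median was -0.19. With the length trend removed it was 0.01, with 14 falls and 10 rises. Spc25, of the NDC80 kinetochore complex, stood at 626, 622, 604 and 722 CPM in early and 137, 166, 196 and 212 CPM in late embryos, a log2 change of -1.86 ± 0.15 (SE, adjusted p = 1.2e-12, limma). Cenpf, also of the kinetochore, went from 73.8 ± 11.4 to 22.1 ± 5.97 CPM and Nusap1, a spindle protein, from 210 ± 37.4 to 80.4 ± 13.3 CPM. Cdk1, the mitotic kinase, went from 625 ± 39.3 to 371 ± 94.3 CPM (adjusted p = 0.00019). Its partner Ccnb1, cyclin B1, was at 4300, 3180, 3778 and 4239 CPM in early and 3455, 3193, 3732 and 4786 CPM in late libraries, with overlapping groups (adjusted p = 0.93). Ccna2, cyclin A2, fell from 1601 ± 192 to 1102 ± 188 CPM (adjusted p = 0.0044). Early mouse embryos divide without centrioles until later stages, and of 27 genes of centriole assembly 7 fell and 1 rose, a share of falls near the 26.6% of all tested genes. Stil, Cenpj and Ccp110 went from 14.3 ± 3.5, 12.4 ± 2.09 and 17.3 ± 3.61 CPM to 4.19 ± 1.78, 3.78 ± 0.853 and 5.25 ± 1.63 CPM.

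DNA replication was divided, with 10 rises and 17 falls among 55 genes, beside 13.4% and 26.6% of all tested genes. With the length trend removed the counts were 15 and 11, so the list has no fixed direction. E2f1, a driver of S phase entry, fell by 1.11 ± 0.21, Gins3, of the replicative helicase, by 0.97 ± 0.21 and Uhrf1, which guides DNA methylation to new strands, by 1.34 ± 0.26 on the log2 scale. Rfc4, of the clamp loader, went from 93.5 ± 27.9 to 185 ± 20.9 CPM. The largest adjusted p of the 4 was 0.00019 (limma).

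In DNA methylation and demethylation 9 of 23 genes fell, 1 rose and 13 did not pass. With the length trend removed 8 fell and 6 rose, and the summed level of the list overlapped between the ages, at 2177 to 2633 CPM in early and 2332 to 4049 CPM in late libraries. Gadd45a, a stress-induced gene linked to demethylation, was at 11.9, 12.4, 15.8 and 13.2 CPM in early and 1.41, 0.757, 0.718 and 0.807 CPM in late embryos, a log2 change of -2.91 ± 0.22 (SE, adjusted p = 3.2e-13, limma). Gadd45b went from 21.1 ± 3.41 to 4.66 ± 0.225 CPM, Tet3, the dioxygenase that acts in the zygote, from 13.5 ± 2.16 to 3.84 ± 1.96 CPM and Zfp57, which guards imprints, from 64.8 ± 14.4 to 18.1 ± 5.99 CPM. Dnmt1, the maintenance methyltransferase, was at 28.2 ± 2.26 and 14.6 ± 3.65 CPM (adjusted p = 0.016, limma), a call lost in 3 of the 15 alternatives at adjusted p of up to 0.07. Of 64 histone modifiers 21 fell and 8 rose, beside 26.6% and 13.4% of all tested genes. With the length trend removed 11 fell and 12 rose. Bmi1, of Polycomb, went from 190 ± 31 to 67.4 ± 6.97 CPM, and Kmt2d, an enhancer methyltransferase, from 101 ± 38.5 to 31.8 ± 15.6 CPM. The histone chaperone gene Ubn1, of the HIRA complex, fell by 1.55 ± 0.2 on the log2 scale. Of 28 silencers of retroelements 10 fell and 4 rose, beside 26.6% and 13.4% of all tested genes. Mov10l1, a helicase of the piRNA pathway, went from 43.3 ± 9.67 to 12 ± 3.87 CPM. Its relative Mov10 went from 9.82 ± 1.44 to 28.1 ± 11.7 CPM.

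RNA polymerase II, its general factors and Mediator had 19 falls and 5 rises among 64 genes, beside 26.6% and 13.4% of all tested genes. The median was -0.3. With the length trend removed the median was -0.05 and the counts were 16 and 11. The rises were 3 without late library 4, early library 3, early library 4 or late library 3. Gtf2a1, a subunit of TFIIA, was at 693, 555, 637 and 615 CPM in early and 356, 300, 255 and 108 CPM in late libraries, with late library 4 lowest. Its log2 change was -1.42 ± 0.27 (SE, adjusted p = 5.4e-05, limma). Among 52 core spliceosome genes 13 rose and 8 fell, beside 13.4% and 26.6% of all tested genes. With the length trend removed the counts were 20 and 5. Srsf3, a splicing regulator, was at 112, 117, 133 and 111 CPM in early and 318, 301, 310 and 495 CPM in late embryos, and Srsf10 went from 303 ± 40.3 to 134 ± 8.24 CPM.

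In the MYC and MAX network, which controls growth genes, 9 of 16 genes fell, 1 rose and the median was -0.97. The riser was Mlx. Mga, a MAX partner that represses germ line genes, was at 129, 128, 90.9 and 137 CPM in early and 51.2, 55.8, 47.9 and 30.2 CPM in late embryos, lower without overlap. Its log2 change was -1.39 ± 0.23 (SE, adjusted p = 6.1e-06, limma). The glucose-sensing partners Mlxip and Mlxipl had log2 changes of -1.56 ± 0.21 and -1.64 ± 0.25 and the antagonist Mxi1 one of -1.33 ± 0.26. Myc itself was at 65.2, 59.1, 57.6 and 37.2 CPM and then 79.7, 64.3, 69.2 and 110 CPM, overlapping and not past the threshold (adjusted p = 0.19). Mycn was at 2.31 ± 1.65 and 1.16 ± 0.52 CPM (adjusted p = 0.19, and 0.045 without early library 4), and Mycl at 3.11 ± 0.977 and 1.19 ± 2.11 CPM (adjusted p = 0.0065).

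In FGF and MAPK signalling 14 of 41 genes fell and 3 rose, beside 26.6% and 13.4% of all tested genes. The rises were 5 or 6 under the scaling alternatives. Spry4, a feedback inhibitor, was at 87.2, 86.1, 63.7 and 63.7 CPM in early and 19.9, 17.3, 11.9 and 4.38 CPM in late embryos. The log2 change was -2.56 ± 0.33 (SE, adjusted p = 4.6e-08, limma). The phosphatases Dusp7 and Dusp1, which switch off MAP kinases, fell by 2.43 ± 0.23 and 1.78 ± 0.35. In WNT and TGF-beta signalling 19 of 51 fell and 5 rose, with Tgfb2 going from 17.1 ± 3.79 to 2.44 ± 2.57 CPM, its effector Smad3 from 15.1 ± 2.5 to 3.14 ± 1.14 CPM and the receptor Fzd4 from 39.3 ± 18.9 to 9.41 ± 4.33 CPM. Around p53, 13 of 35 genes fell and 5 rose. The rises were 3 without early or late library 4 and 8 with the length trend removed. Mdm4, an inhibitor of p53, was at 1268, 1070, 1033 and 1188 CPM in early and 246, 335, 331 and 366 CPM in late libraries, a fall of 1.84 ± 0.14 on the log2 scale. Its mean was highest of all ages at 52 h, 3038 CPM. Sesn2, a stress sensor upstream of mTOR, went from 63 ± 7.43 to 11.6 ± 4.52 CPM and Bcl2l10, an oocyte survival factor, from 26.8 ± 8.06 to 4.61 ± 0.956 CPM.

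On the X chromosome 17.4% of 804 tested genes rose and 17.9% fell, at a median log2 change of -0.02, beside 13.4% and 26.6% of all genes. The autosomes ranged from 10.3 to 16% higher and from 23 to 29.9% lower, so no autosome had as few falls or as many rises. Xist, the RNA that coats the paternal X in female embryos, was at 27.5, 6.09, 12.5 and 22.4 CPM in early and 57.3, 52.1, 38.5 and 30.5 CPM in late libraries, a log2 change of 1.48 ± 0.48 (SE, adjusted p = 0.012, limma). The call was lost without early library 2 (adjusted p = 0.082). Counting by strand was not stated, so reads of the overlapping antisense gene Tsix cannot be told apart. Of 17 tested genes of X inactivation and its regulators 3 rose, 3 fell and 11 did not pass, at a median of -0.24. The risers were Xist, Rbm15 and Wtap. Pcgf5 was among the fallers, a call lost with the length trend removed (log2 change -0.45, adjusted p = 0.086, limma). Rbm15 and Wtap, which guide RNA methylation and bind Xist, went from 59.7 ± 9.24 to 156 ± 69.8 CPM and from 3045 ± 428 to 5290 ± 1348 CPM (adjusted p of 0.016 and 0.0089). The Rbm15 call was lost without late library 1 or 2. The sexes of the embryos in a library were not stated. The Y-linked genes together had 59.6 to 106 CPM in early and 38.5 to 71.3 CPM in late libraries. Of 8 tested, 4 fell, 1 rose and 3 did not pass. Uty went from 35.5 ± 14.5 to 9.56 ± 1.42 CPM. Eif2s3y was also among the fallers, a call lost without late library 4 (log2 change -0.77, adjusted p = 0.058, limma). Among 36 imprinted genes 9 rose (4 with only the 8 libraries fitted) and 8 fell, beside 13.4% and 26.6% of all tested genes. Mest, expressed from the paternal copy, went from 30.1 ± 7.46 to 6.49 ± 1.8 CPM.

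Promoters of the changed genes were described by short motifs on either strand, counted in windows of 250 bases before to 50 bases after a start (RefSeq, build GRCm38.p6, 12407 of 20158 tested genes matched). The letters CCGGAAG, bound by ETS factors, occurred in 19.8% of the 1694 matched risers, 15% of the 3605 matched fallers and 16.4% of all matched genes, and in 9.12% of all 27025 promoters. They were in 39.3% of 61 ribosomal protein promoters, 36.2% of 69 mitochondrial ribosome promoters and 43.3% of 30 proteasome promoters, against 1.96% of 51 oocyte-transcript promoters. The share was 39.1% of 64 in ribosome assembly, a list to which no direction is given. It was also 33.3% of 54 RNA polymerase II and Mediator promoters and 33.3% of 45 DNA replication promoters. Both lists had more falls than rises, as did all tested genes. In lists with more rises than falls it was 0% of 27 pluripotency and 6.9% of 29 trophectoderm promoters. Other lists are not printed. The GC box GGGCGG went the other way, with 56.8% of risers, 61.5% of fallers and 57.9% of all matched genes, and CCAAT stood at 36.3, 41.6 and 39.4%. The E-box CACGTG, bound by MYC and MAX, was in 8.85% of risers and 9.85% of fallers. These matches are letters in a window and not sites shown to be bound. The 100 bases before the start of 3 genes that rose and 3 that fell are printed to show the ETS letters, in capitals, in both kinds, 5′ to 3′ on the gene's own strand.
Eif3d (rose; chr15:77970825-77970924, minus strand): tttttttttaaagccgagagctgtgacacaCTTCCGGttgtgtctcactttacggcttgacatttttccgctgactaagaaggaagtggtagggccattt
Mrps18a (rose; chr17:46110904-46111003, plus strand): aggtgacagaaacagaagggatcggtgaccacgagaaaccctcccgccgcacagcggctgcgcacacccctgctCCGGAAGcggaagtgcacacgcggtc
Psmc6 (rose; chr14:45329724-45329823, plus strand): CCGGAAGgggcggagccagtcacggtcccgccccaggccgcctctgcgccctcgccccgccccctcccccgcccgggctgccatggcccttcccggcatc
Cenpf (fell; chr1:189688087-189688186, minus strand): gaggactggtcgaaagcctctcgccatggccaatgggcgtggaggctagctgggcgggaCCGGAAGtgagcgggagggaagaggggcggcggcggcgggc
Ccp110 (fell; chr7:118712443-118712542, plus strand): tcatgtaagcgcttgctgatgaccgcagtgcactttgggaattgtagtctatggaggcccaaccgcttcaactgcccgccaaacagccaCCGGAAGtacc
Gtf2a1 (fell; chr12:91590488-91590587, minus strand): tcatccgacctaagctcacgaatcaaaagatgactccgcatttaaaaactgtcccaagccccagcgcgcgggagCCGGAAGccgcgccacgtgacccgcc

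Markers of other cells that could travel with embryos were mostly at or near 0. Of 14 markers of cumulus and granulosa cells, which surround the egg, 7 were at 0 in all 8 libraries, among them Fshr, Has2, Ptx3 and Inha. The summed level was 63.1 to 95.8 CPM in early and 56.7 to 65.7 CPM in late libraries, nearly all from Amhr2, and the highest value of any other member was 2.2 CPM. Of 11 sperm markers 9 stayed under 1 CPM, with summed levels of 10.1 to 17.5 CPM in early and 6.43 to 9.08 CPM in late libraries, mostly from Ldhc. Of its 3 tested members 2 were lower in late embryos, Ldhc with adjusted p = 0.0036 (limma). That call was lost with a pseudocount of 0.1 (adjusted p = 0.064), the replicate block (0.058) and quantile scaling (0.08). Of 8 blood markers 3 were at 0 throughout and the summed level was 9.08 to 26.8 CPM in early and 4.4 to 13.6 CPM in late libraries, mostly from the globin genes. No tested member of the cumulus list (5) or blood list (3) passed the threshold in limma or had an unadjusted p under 0.05. The part of other cells in the results was not tested.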

How the data were processed

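The authors deposited 1 table of CPM values (counts scaled to one total per library) with an offset of 0.0001 in every cell, which was subtracted. The submitters' processing notes name STAR 2.6.1d and the build mm10; the counting tool and annotation are not given in the sources used here. Of 91 columns, 85 matched a sample by its description and 6 were not used. The 26 rows named by numbers, and Tdh, which lacks a value in 1 library, were left out. Symbols were matched to GENCODE M21 on GRCm38 (36810 of 37368). Values of up to 20 reads came out whole (within 0.1 reads) in only 71.6 to 73.5% of cases per library, so no count test was used and depth was read from the commonest step between values.

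Differences were tested with limma 3.58.1 in R 4.3.3 on log2(CPM + 1), in genes above 1 CPM in at least 3 of the 45 libraries of the 12 standard groups, which share 1 estimate of the spread, with Benjamini-Hochberg adjustment over 20158 genes at 0.05. The fit was also run on simulated data with independent normal scatter. Those data lack a library that stands apart as late library 4 did, so nothing is concluded from them. Single values per library were tested by exact permutation. Genes named were the 15 largest rises and falls, without predicted models, among non-overlapping genes whose higher group reached 20 CPM, up to 4 called members per list with at least 10 CPM and no overlap, and fixed genes of known interest; not all are printed. Members and lists were chosen with earlier results of these data known. Lists are described by counts and medians, with no set test. Each choice was changed in turn: the pseudocount to 0.1, the filter removed, the fit cut to the 8 libraries, a replicate block, median-ratio and quantile scaling, removal of a length trend, and leaving out each library. Values were handled in Python 3.11.15 (pandas 2.3.3, numpy 2.4.6), tested with scipy 1.17.1 and drawn with matplotlib 3.10.9. Some genes are not reported here.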

Additional observations from a re-analysis of the deposited data

Results flagged for a closer look

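In 31 of 446 groups of 4 libraries, 6.95%, the highest or lowest library lay apart from the others by Dixon's test at the 95% level. Chance gives about 1 in 20 such groups. Late library 4, which is low in mitochondrial RNA, accounted for 9 and early library 1 for 8.

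In late library 4, Cldn4 was at 280 CPM, Mrps6 at 106, Mrpl15 at 419, Srsf3 at 495, Cenpj at 5.06, Pou5f1 at 59.1, Atp6v0a1 at 60.5 and Pcgf5 at 114 CPM, each above the other late libraries, and Dusp7 was at 1.49 CPM, below them. In early library 1, Oog3 was at 641 CPM, Lars at 6.16, Sqle at 318, Dab2 at 16.2, Pard3 at 113, Atp1b1 at 28.5, Pms2 at 94.8 and Slc2a3 at 61 CPM, all higher than in the other early libraries.

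Of the other early libraries, library 2 was low in Pxt1 (38 CPM), Slc39a2 (0.377 CPM) and Fbxo43 (5.88 CPM). Library 3 was high in Oasl2 (5.16 CPM) and Cldn7 (43.1 CPM) and low in Wee2 (20.8 CPM). Library 4 was low in Mxra8 (13.4 CPM) and deepest at 42.6 M reads. Of the other late libraries, library 1 was high in Gadd45a (1.41 CPM). Library 2 was high in Cdx2 (0.126 CPM) and Mycl (4.35 CPM) and low in Tead2 (2.02 CPM) and Kpna6 (13.6 CPM). Library 3 was low in Mpc1 (659 CPM).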

How the results depend on the processing

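Of 222 named genes 207 passed the threshold, 198 kept the call under all 15 alternatives, 9 lost it under at least 1 and 0 changed direction. Most were named because they passed with large changes and no overlap, so these counts follow from the choice. Of all 8066 calls, 6529 were kept with quantile scaling and 6751 with the length trend removed. The cause of each change below was not tested. The count of higher genes was 4067 with the length trend removed, and leaving out 1 library gave 2396 to 2671 higher genes and 7476 to 7751 in all. The 100 highest genes' share differed by 1.76 to 3.32 percentage points when 1 library was left out, and that of a larger set of top genes by 3.38 points (exact permutation p = 0.029). The mitochondrial share differed by -1.25 to 0.186 points, positive without late library 4. Log2 changes turned positive for Sox21 (0.066 with quantile scaling, 0.028 without early library 2; -0.37 to 0.028 with 1 library left out), Mpc1 (0.063 with median-ratio scaling, 0.11 without the length trend, 0.029 without early and 0.012 without late library 3; from -0.17), Ccnb1 (0.073 and 0.13 under those scalings, 0.016, 0.0087, 0.00098 and 0.039 without early library 1 or 4 or late library 1 or 2; from -0.16), mt-Cytb (-0.78 to 0.14) and mt-Co1 (-1.27 to 0.016, both positive without late library 4). None of these passed. Same-numbered libraries correlated at 0.0811, 0.271, -0.1 and 0.0272, and were not taken as pairs. With the replicate number as a block, the 8 libraries gave 5736 calls against 5666 without the block, of 14867 genes tested. Counting error limits values near 1 CPM.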
